A study of Homo sapiens with 6 samples.

Results

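Notch signalling genes were followed in GLO1-knockout HEK293T, a line derived from human embryonic kidney, with and without methylglyoxal (MGO), a reactive by-product of sugar breakdown. The set held 10 genes, chosen by name: the receptors NOTCH1, NOTCH2 and NOTCH3, the ligands JAG1, JAG2 and DLL1, and the target repressors HES1, HES4, HES6 and HEY1. Each of the 10 matched 1 of the 56832 rows of the count tables, and all 10 passed the filter on low counts, among 17415 genes tested. The design compared 3 untreated libraries, numbered 1, 2 and 4, with 3 libraries numbered 1, 3 and 4 from cells given 0.2 mM MGO in the medium overnight. By the labels both groups, controls included, carried the knockout of GLO1, the gene of the enzyme that starts the clearance of MGO, and no wild-type library was analysed here. The labels do not say whether the knockout line was a single clone or whether each library was grown as its own culture. The p-values therefore speak of the spread among these 6 libraries, and part or all of it may be technical.

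Notch receptors are single-pass membrane proteins that are activated by ligands of the Jagged and Delta families on a neighbouring cell. Ligand binding exposes the receptor to an ADAM protease and then to gamma-secretase, and the released intracellular domain joins the DNA-binding protein RBPJ and a Mastermind co-activator in the nucleus. HES and HEY genes are the best known targets, and encode basic helix-loop-helix repressors that act with Groucho/TLE corepressors. The pathway sets cell fate in many embryonic tissues, the developing kidney among them.

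Total counts ran from 41002134 to 45910040 in the untreated and from 19195920 to 21544749 in the MGO libraries, and this difference in depth cannot be told apart from treatment. GLO1 itself ran from 46.2 to 51.0 CPM in untreated and from 134.5 to 144.8 CPM in MGO libraries after scaling, which does not test the knockout, since a small lesion can leave the transcript in place. Levels are CPM after TMM scaling, which multiplies each library size by a factor (1.03 to 1.04 in untreated, 0.944 to 0.978 in MGO libraries). A change is therefore relative to the bulk of genes tested and is no absolute amount. Of 8 genes expected in HEK293 cells, 7 stood above 1 CPM in every library. They moved with MGO too: PAX2, NEFL, NEFM, LHX1 and CDH2 fell, with log2 fold changes from -2.24 (PAX2) to -1.12 (CDH2), and KRT18, KRT8 and VIM rose, from 0.37 (VIM) to 0.67 (KRT18). The summed level of the 6 endothelial markers was 1.72 to 2.06 CPM in untreated and 3.53 to 4.87 CPM in MGO libraries, and that of the 6 blood cell markers at most 1.09 CPM. The 6 fibroblast markers summed to 24.7 to 25.9 CPM in untreated and 10.7 to 13.1 CPM in MGO libraries, nearly all of it COL1A1. Above 1 CPM in every library stood 0 of the endothelial, 0 of the blood cell and 1 of the fibroblast markers. By group mean, KDR passed 1 CPM only in untreated libraries (1.28) and CLDN5 only in MGO libraries (3.15). The labels name HEK293T cells only, and whether cells of another type were present was not tested. In bulk RNA, fewer cells of a kind and less RNA per cell cannot be told apart.

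Sequence upstream of the start site is shown for HES1 and HES4, because these closely related repressors moved in opposite directions and both windows hold letters of the RBPJ motif. RefSeq start sites on GRCh38.p14 were matched for 8 of the 10 genes (all but DLL1 and HEY1), and the 250 bases before each start were searched. Capitals mark each TGGGAA, the core letters of the RBPJ motif. The HES1 window is chr3:194135898-194136147 on the plus strand and the HES4 window chr1:1000098-1000347 on the minus strand, both written 5′ to 3′ along the gene.
HES1: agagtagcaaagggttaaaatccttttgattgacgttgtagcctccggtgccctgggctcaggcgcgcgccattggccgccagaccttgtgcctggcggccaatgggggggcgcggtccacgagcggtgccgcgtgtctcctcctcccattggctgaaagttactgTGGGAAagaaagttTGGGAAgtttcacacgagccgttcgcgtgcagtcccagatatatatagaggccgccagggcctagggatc
HES4: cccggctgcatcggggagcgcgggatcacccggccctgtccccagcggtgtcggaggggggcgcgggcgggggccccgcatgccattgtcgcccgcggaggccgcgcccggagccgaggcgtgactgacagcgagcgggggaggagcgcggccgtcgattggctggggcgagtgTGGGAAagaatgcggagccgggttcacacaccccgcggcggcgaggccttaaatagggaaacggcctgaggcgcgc
HES1 held TGGGAA starting 84 and 70 bases before the start, and HES4 held it 76 bases before the start. The longest run of letters common to the pair was tgTGGGAAagaa, 12 bases that begin 86 bases before the start of HES1 and 78 bases before that of HES4. The longer motif GTGGGAA occurred once in each. On either strand TGGGAA was found in 20.8% and GTGGGAA in 5.43% of 35116 windows of this length, and TGGGAA in 0 of the other 6 Notch gene windows. The N box CACNAG, a motif read by HES proteins, was present 3 times in HES1 and was not found in HES4, against 32.0% of all windows. The 8 windows had between 59.2% (HES1) and 81.6% (JAG2) G and C. A match describes letters in a window and does not show binding. The starts used here for HES1, HES4, HES6 and JAG2 lie inside the genes as GENCODE release 29 annotates them. Those for NOTCH1, NOTCH2 and NOTCH3 lie outside, so matches and their absence rest on the starts used.

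Of the 10 genes 8 fell, 1 rose and 1 did not pass the test. JAG2, NOTCH3 and HEY1 fell about 3-fold or more, HES4 rose 1.57-fold (SE of the log2 fold change 0.0396), and DLL1 did not pass. The edgeR quasi-likelihood test at an adjusted p under 0.05 called 83.1% of all genes tested, 41.2% lower and 41.8% higher, so a call alone sets no gene apart here. The median log2 fold change was -0.55 over the 10 genes, against 0.0053 over all genes tested. Against a fold of 1.5 in place of no change, 4 genes were lower (NOTCH2, NOTCH3, JAG2 and HEY1) and 1 higher (HES4), where 47.7% of all genes tested were called, 22.6% lower and 25.1% higher. The groups did not overlap for 9 of the 10 genes, 8 with MGO lower and 1 with MGO higher, against 83.5% of all genes tested, 41.7% with MGO lower and 41.8% with MGO higher. Before TMM scaling, the 10 genes summed to between 706 and 743 CPM in untreated libraries and between 500.1 and 504 CPM in MGO libraries.

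**Figure D1:**
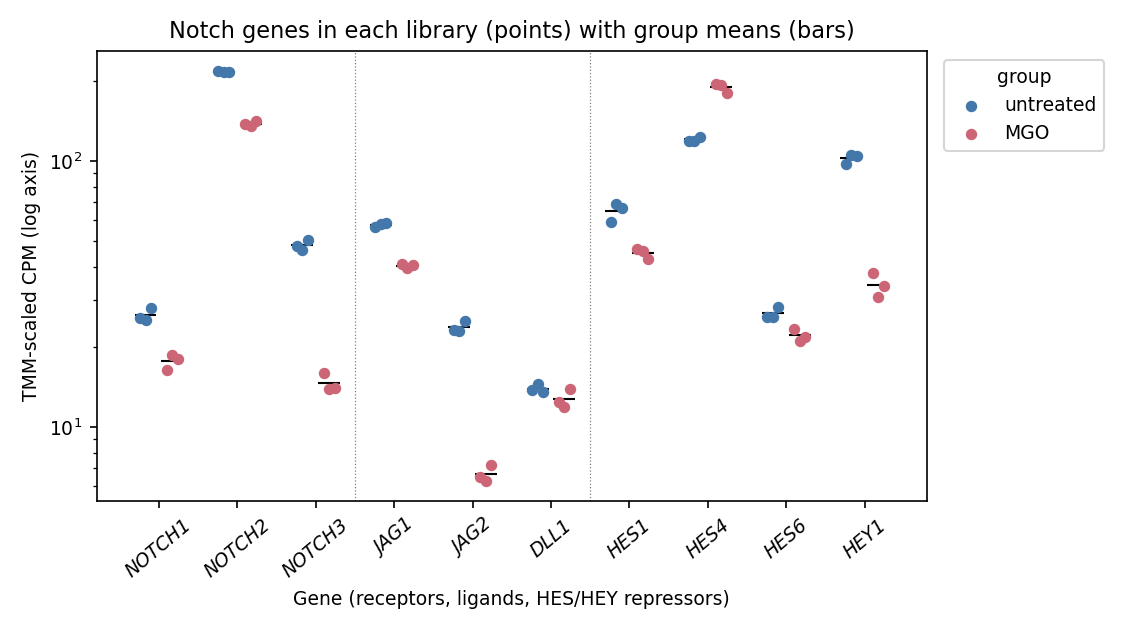
TMM-scaled CPM (log axis) of the 10 Notch genes in each of 3 untreated (blue) and 3 MGO (red) libraries, with a bar at each group mean. MGO points lie below untreated points for 8 genes, and above them for HES4. For DLL1, MGO library 4 lies within the untreated range and the other MGO points below it.

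All 3 receptor genes fell, NOTCH3 most. NOTCH3, a receptor best known in smooth muscle and pericytes (GRCh38 chromosome 19, 15159038 to 15200981, minus strand), was covered by 2226, 2218 and 2148 reads in the untreated libraries, given in the order 1, 2, 4 here and throughout. MGO libraries, in the order 1, 3, 4, held 290, 258 and 294. Its levels were 48.0, 46.3 and 50.5 CPM in untreated and 16.0, 13.8 and 14.0 CPM in MGO libraries. The groups lay far apart, each with a narrow spread. Group means were 48.3 ± 2.07 and 14.6 ± 1.22 CPM (SD, n = 3 each), a 3.31-fold fall (log2 fold change -1.73, SE 0.0617, adjusted p = 6.69e-22, edgeR).

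NOTCH2, the receptor with the most counts in these cells (chromosome 1, 119911553 to 120069626, minus strand), stood at 218, 216 and 216 CPM in untreated libraries and 138, 135 and 141 CPM in MGO libraries. The groups were far apart relative to their spread, at 217 ± 0.746 and 138 ± 3.11 CPM (SD, n = 3 each). The fall was 1.57-fold (log2 fold change -0.65, SE 0.0375, adjusted p = 1.92e-16, edgeR). Against a fold of 1.5 its adjusted p was 0.0315, and that call held in 9 of 13 alternatives (range of adjusted p 7.15e-09 to 0.545). It was lost with RLE scaling, with 1 CPM required throughout, with the block and with thinned untreated libraries. NOTCH2 has near-identical partial copies, and the row NOTCH2NL held 11 to 44 counts, at most 1.48% of the NOTCH2 counts of a library. That row does not measure reads shared with the copies. How such reads were counted is not known, which leaves the NOTCH2 value uncertain.

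NOTCH1, a receptor mutated in T cell leukaemia (chromosome 9, 136494433 to 136545786, minus strand), stood at 25.7, 25.3 and 28.1 CPM in untreated libraries. In MGO libraries it stood at 16.4, 18.6 and 18.0 CPM, from 297 to 378 counts. All MGO values were below all untreated values. The means were 26.4 ± 1.53 and 17.7 ± 1.14 CPM (SD, n = 3 each), a 1.49-fold fall (log2 fold change -0.58, SE 0.0643, adjusted p = 1.31e-09, edgeR), which did not pass against a fold of 1.5.

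Shares within the receptor class do not depend on how libraries are scaled to each other. Counts were divided by exon length (the union of GENCODE exons) and expressed as a percent of the 3 receptors in each library. NOTCH2 made up 63.1%, 63.6% and 61.4% of the receptor level in untreated libraries and 71.5%, 71.1% and 72.3% in MGO libraries. NOTCH3 went from 24.9%, 24.4% and 25.6% to 14.8%, 13.0% and 12.8%, and NOTCH1 from a mean of 12.3% to 14.8%. The receptor pool was thus mostly NOTCH2 in both groups, and NOTCH3 lost its place ahead of NOTCH1: per kilobase of exon the pair stood at 5.14 ± 0.220 and 2.54 ± 0.148 CPM in untreated libraries. In MGO libraries NOTCH3 (1.47 to 1.71 CPM per kb) and NOTCH1 (1.58 to 1.80 CPM per kb) overlapped.

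The ligands ran from the largest fall of the set to no call. JAG2, a Jagged ligand with roles in limb and craniofacial development (chromosome 14, 105140981 to 105168824, minus strand), counted 1075, 1101 and 1070 reads without MGO and 117, 117 and 151 with it. That is 23.2, 23.0 and 25.1 CPM against 6.47, 6.28 and 7.17 CPM. The groups lay far apart, with little spread in either. JAG2 fell 3.56-fold, from 23.8 ± 1.18 to 6.64 ± 0.472 CPM (SD, n = 3 each; log2 fold change -1.83, SE 0.0787, adjusted p = 8.03e-20, edgeR). In the annotation 469 exon bases of JAG2 are shared with the same-strand gene AL512356.1, which has no row of that name in the tables.

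JAG1, the ligand gene mutated in Alagille syndrome (chromosome 20, 10637684 to 10673999, minus strand), stood at 56.4, 58.0 and 58.7 CPM in untreated libraries and 40.9, 39.6 and 40.8 CPM in MGO libraries. The groups were separated, with little spread in either. The means were 57.7 ± 1.15 and 40.5 ± 0.732 CPM (SD, n = 3 each), a 1.43-fold fall (log2 fold change -0.51, SE 0.0454, adjusted p = 7.76e-12, edgeR).

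DLL1, a Delta ligand needed for somite formation (chromosome 6, 170282206 to 170306565, minus strand), stood at 13.8, 14.5 and 13.5 CPM in untreated and 12.4, 11.9 and 13.9 CPM in MGO libraries. MGO library 4 lay within the untreated range, so the groups overlapped. The log2 fold change was -0.12 (SE 0.0740, adjusted p = 0.124, edgeR). Its 95% interval ran from -0.27 to 0.03, which covers folds from 0.827 to 1.02, so these libraries leave room for a fall of up to that size. DLL1 was called lower with scaling by library size alone (adjusted p = 0.00745), with no filter on low counts (0.000144) and without MGO replicate 4 (0.0107), in a range over alternatives of 0.000144 to 0.676.

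Within a library, the ligands moved apart. JAG2 made up 25.9%, 25.1% and 27.2% of the per-length level of the 3 ligands in untreated libraries and 10.9%, 11.0% and 11.4% in MGO libraries. DLL1 went from 30.6%, 31.3% and 29.1% to 41.6%, 41.3% and 43.9%. JAG1 had the highest mean share in both groups, 43.6 ± 0.131% in untreated and 46.6 ± 1.69% in MGO libraries (SD, n = 3 each). There were 2.33 to 2.52 JAG1 counts for each JAG2 count in untreated libraries and 5.69 to 6.33 in MGO libraries. Within every library JAG1 stood above DLL1. Per kilobase of exon JAG1 (6.07 to 6.31 CPM) was clear of DLL1 (4.19 to 4.48) in untreated libraries, and in MGO libraries JAG1 (4.26 to 4.40) overlapped DLL1 (3.69 to 4.32). That overlap depends on the length used: per kilobase of the longest transcript JAG1 (6.67 to 6.89 CPM) was clear of DLL1 (3.75 to 4.39 CPM) in MGO libraries.

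**Figure D2:**
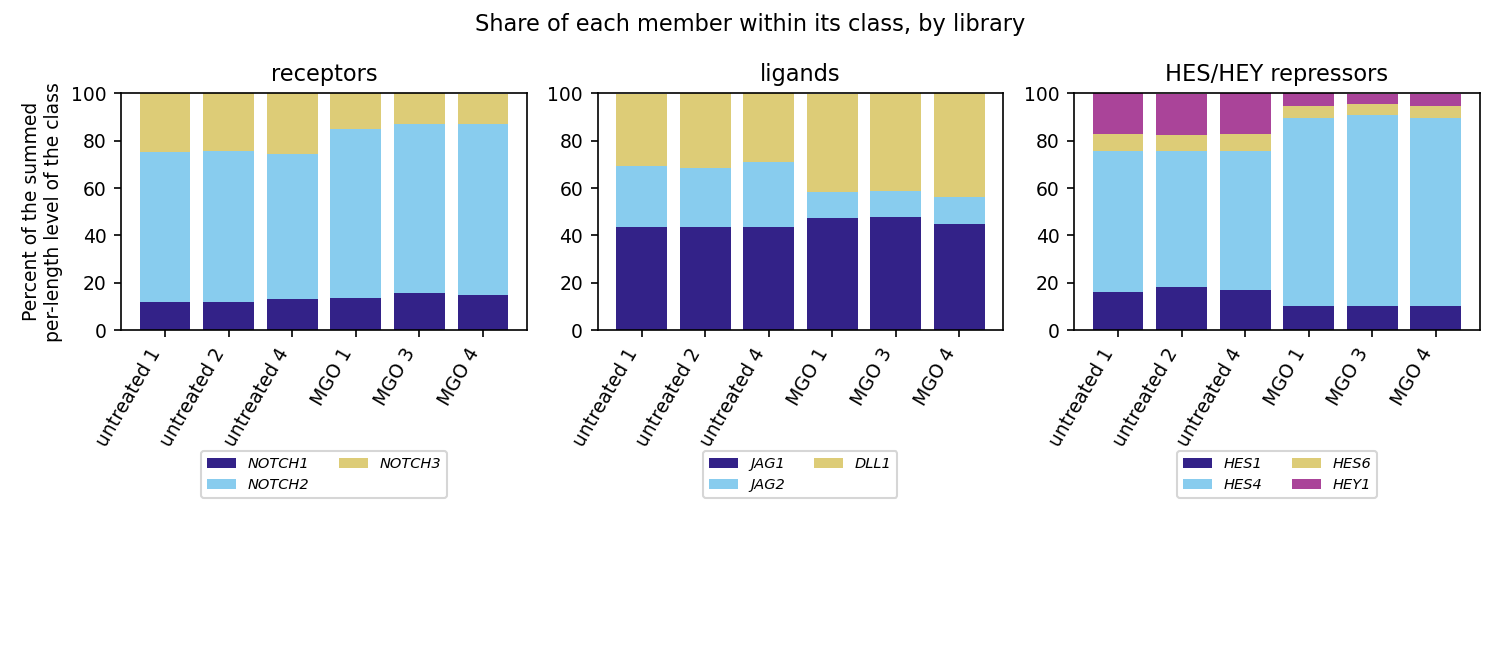
Stacked bars give each gene's percent of the summed per-length level of its class (receptors, ligands, HES/HEY repressors; vertical axis 0 to 100%) in each of the 6 libraries. NOTCH3, JAG2, HEY1, HES1 and HES6 take a smaller share in every MGO library than in any untreated library, and NOTCH2, NOTCH1, DLL1, JAG1 and HES4 a larger one.

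The repressor genes did not move together: HEY1, HES1 and HES6 fell and HES4 rose. HEY1, a target with roles in heart and vessel development (chromosome 8, 79764010 to 79767863, minus strand), counted 4515, 5034 and 4450 reads without MGO and 686, 572 and 713 with it. Its levels were 97.3, 105 and 105 CPM against 37.9, 30.7 and 33.9 CPM. Every MGO library stood far below the lowest untreated one. HEY1 fell 3.00-fold, from 102 ± 4.34 to 34.2 ± 3.61 CPM (SD, n = 3 each; log2 fold change -1.58, SE 0.0546, adjusted p = 5.79e-19, edgeR).

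HES1, the target most often used as a readout of Notch activity (chromosome 3, 194136145 to 194138732, plus strand), stood at 58.8, 68.7 and 66.5 CPM in untreated libraries and 46.7, 45.8 and 42.7 CPM in MGO libraries. Untreated library 1 was the lowest of its group and still lay above every MGO library. The means were 64.7 ± 5.22 and 45.1 ± 2.09 CPM (SD, n = 3 each), a 1.44-fold fall (log2 fold change -0.52, SE 0.0549, adjusted p = 3.28e-09, edgeR).

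HES6, a family member that is expressed in developing neurons and can oppose HES1 (chromosome 2, 238238267 to 238240662, minus strand), stood at 26.0, 26.0 and 28.2 CPM in untreated and 23.4, 21.1 and 21.8 CPM in MGO libraries. The groups did not overlap, though the gap was small. HES6 fell 1.21-fold, from 26.7 ± 1.26 to 22.1 ± 1.20 CPM (SD, n = 3 each; log2 fold change -0.27, SE 0.0598, adjusted p = 0.000116, edgeR).

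HES4, a close relative of HES1 (chromosome 1, 998962 to 1000172, minus strand), was the gene of the set that rose. It counted 5529, 5691 and 5264 reads without MGO and 3543, 3604 and 3802 in the shallower MGO libraries, which is 119, 119 and 124 CPM against 196, 193 and 181 CPM. Every MGO library stood above every untreated one. The means were 121 ± 2.65 and 190 ± 8.16 CPM (SD, n = 3 each; log2 fold change 0.66, SE 0.0396, adjusted p = 5.84e-16, edgeR). Against a fold of 1.5 its adjusted p was 0.0254, and that stricter call held in 5 of 13 alternatives (range 0.00055 to 1). It was lost without untreated replicate 1 or 2, without MGO replicate 1 or 3, without both libraries numbered 1, with the block, with no filter and with scaling by library size alone.

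The split between HES4 and the other repressors was also seen in ratios of counts within a library, where scaling cancels. There were 2.03, 1.73 and 1.86 HES4 counts per HES1 count in untreated libraries and 4.19, 4.23 and 4.23 in MGO libraries. Against HEY1 the ratio went from 1.22, 1.13 and 1.18 to 5.16, 6.30 and 5.33. These ratios show unequal change and not which gene of a pair moved. Per length, HES4 made up 59.9%, 57.5% and 58.5% of the 4 repressors in untreated libraries and 79.2%, 80.4% and 79.4% in MGO libraries, while HEY1 went from a mean of 17.2% to 4.96%, HES1 from 17.0% to 10.3% and HES6 from 7.13% to 5.09%.

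Ordered by level per kilobase of exon, HES4 led in both groups, at 108 ± 2.37 CPM per kb in untreated and 170 ± 7.29 in MGO libraries (SD, n = 3 each). In untreated libraries HEY1 (31.7) and HES1 (31.4) followed and overlapped, then HES6 (13.1) and NOTCH2 (12.9), which also overlapped, and then JAG1, NOTCH3, DLL1, JAG2 and NOTCH1, each clear of its neighbours. In MGO libraries HES1 (21.9 CPM per kb) was clear of HES6 (10.9) and HEY1 (10.6), which overlapped, and NOTCH2 (8.23) came next. JAG2 (1.04 CPM per kb) was the lowest gene of the set in MGO libraries, in place of NOTCH1. Per kilobase of the longest transcript, NOTCH2 was clear above HES6 (16.2 to 17.6 CPM) and DLL1 (4.26 to 4.56) overlapped JAG2 (3.94 to 4.31) in untreated libraries, and in MGO libraries HEY1 had a higher mean than HES6 (14.9 against 13.8), still with overlap. Shares and order thus rest on annotated lengths, and transcript use in these cells was not measured.

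**Figure D3:**
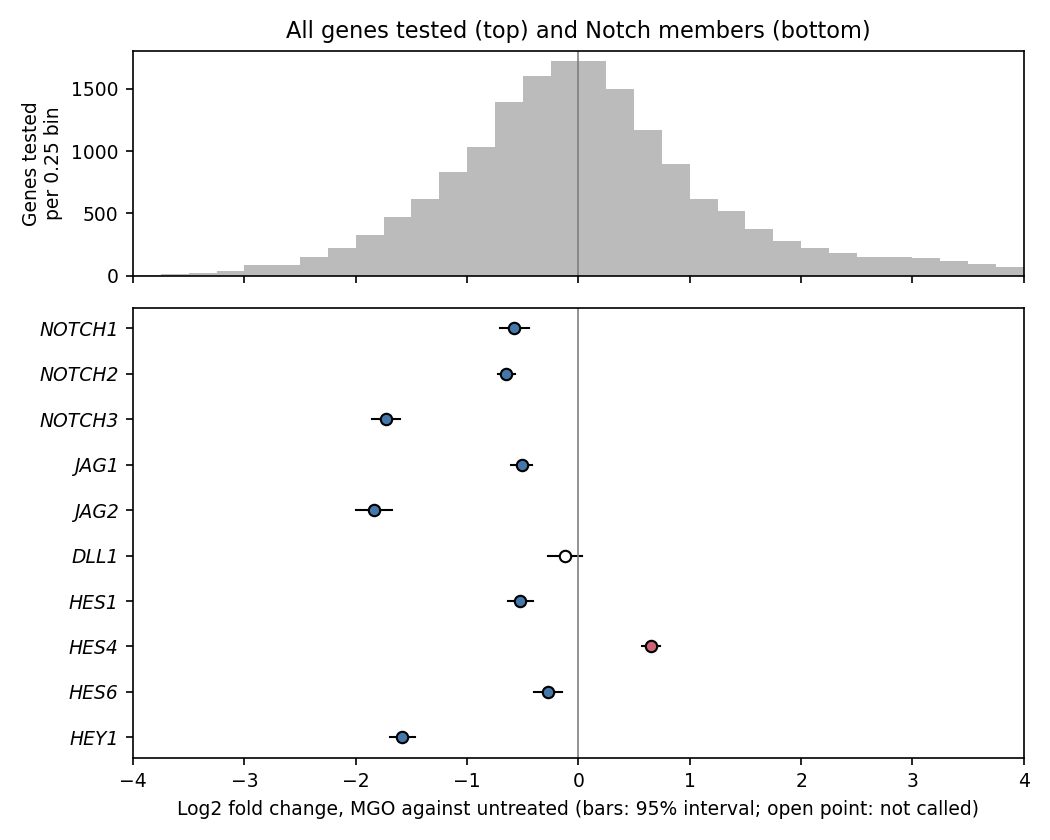
Top, number of tested genes per 0.25-wide bin of log2 fold change, drawn from -4 to 4 (578 genes, 3.32%, lie beyond). Bottom, log2 fold change of each Notch gene with its 95% interval. JAG2 (-1.83), NOTCH3 (-1.73) and HEY1 (-1.58) lie in the lower part of the distribution, the interval of DLL1 spans 0, and HES4 (0.66) is on the right.

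In the distribution over all genes tested, JAG2 lay at percentile 4.98, NOTCH3 at 5.91 and HEY1 at 7.37 of log2 fold change. HES4 lay at percentile 72.5, and the other 6 genes between 25.8 (NOTCH2) and 45.1 (DLL1). The genes most like JAG2, by distance between centred log2 CPM over the 6 libraries among genes of at least 5 CPM, were NUDT16 (distance 0.0839), HMX1 (0.126) and C5orf24 (0.126). Their log2 fold changes were -1.77, -1.75 and -1.84. With 2 groups this measure mostly ranks genes by the size of their difference.

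Around these genes, the rest of the pathway went in both directions. Of 95 genes on 9 lists of receptors, ligands, enzymes, nuclear factors and targets, 85 passed the filter, of which 43 fell, 27 rose and 15 did not pass the test, with a median log2 fold change of -0.14 against 0.0053 over all genes tested. With 83.1% of all genes tested called, 41.2% lower and 41.8% higher, a large share of calls is the background here, for these 85 genes and for each list below. Against a fold of 1.5, 27 were lower and 10 higher, where 22.6% and 25.1% of all genes tested were. Among 7 measured other receptors and ligands 4 fell and 2 rose. DLL4, the Delta ligand of sprouting vessels, rose, unlike JAG1 and JAG2, from 1.79, 1.61 and 1.48 CPM to 9.45, 8.48 and 9.74 CPM (log2 fold change 2.50, SE 0.120, adjusted p = 1.41e-18, edgeR). Of the endothelial markers CLDN5 also rose, from 0.242 to 3.15 CPM, and KDR fell from 1.28 to 0.663 CPM. CNTN1, a neuronal contact protein reported as a Notch ligand, fell from 8.83 to 1.94 CPM and DNER, a Delta-like neuronal protein, from 12.2 to 4.89 CPM.

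Among the other HES and HEY genes, 4 of 6 passed the filter. HEY2, a close relative of HEY1, rose from 31.6, 29.7 and 31.0 CPM to 42.2, 43.4 and 43.2 CPM (log2 fold change 0.48, SE 0.0493, adjusted p = 1.98e-10, edgeR). HEYL fell from 8.99 to 4.78 CPM, and HES7, the segmentation clock gene, rose from only 0.563 to 0.977 CPM (adjusted p = 0.0113, edgeR). For HES7, MGO library 3 (0.590 CPM) lay within the untreated range, so the groups overlapped. Thus HEY1 and HEY2 moved apart as HES1 and HES4 did.

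Of 9 sugar transferases that modify the receptor 6 were called lower and 1 higher, at a median log2 fold change of -0.60, and against a fold of 1.5 4 were lower and 1 higher. POFUT1, which adds the O-fucose needed for ligand binding, fell from 123, 121 and 117 CPM to 48.8, 48.9 and 48.6 CPM, and XXYLT1, which extends O-glucose, from 49.3 to 12.2 CPM. RFNG, one of the Fringe enzymes that extend O-fucose, rose from 35.2 to 78.2 CPM. Of 9 proteases and gamma-secretase subunits, 4 were called higher and 3 lower (median -0.04). ADAM10, the main sheddase of ligand-bound Notch, fell from 90.5, 91.7 and 93.8 CPM to 37.1, 40.7 and 40.9 CPM. The gamma-secretase subunits APH1B (28.5 to 9.32 CPM) and NCSTN (125 to 88.2 CPM) fell as well.

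Of 15 trafficking and degradation genes 7 were called higher, 5 lower and 3 did not pass the test (median log2 fold change -0.10), and against a fold of 1.5 1 was higher and 2 lower. NEURL1B, a ubiquitin ligase for Notch ligands, fell from 6.73 ± 0.220 to 0.422 ± 0.134 CPM (SD, n = 3 each; log2 fold change -4.00, SE 0.192, adjusted p = 1.35e-18, edgeR). FBXW7, which marks the intracellular domain for degradation, rose from 11.7 to 20.7 CPM, and DTX3, a Deltex ubiquitin ligase, from 31.1 to 46.7 CPM.

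In the nucleus, 5 of 9 genes of the RBPJ activator complex fell and 4 rose (median log2 fold change -0.10). MAML3, a Mastermind co-activator, fell from 7.55 to 2.19 CPM, and its more abundant relative MAML1 from 88.7 to 72.5 CPM. RBPJ itself fell from 155 to 145 CPM. The acetyltransferase EP300 rose from 145 to 358 CPM and the adaptor SNW1 from 71.3 to 139 CPM. Of 18 corepressors 10 were called lower and 4 higher (median log2 fold change -0.18), beside 41.2% and 41.8% of all genes tested, and against a fold of 1.5 5 were lower and 2 higher. TBL1X, a subunit of the NCOR complex, fell from 42.6 to 10.4 CPM, while its more abundant relative TBL1XR1 rose from 105 to 145 CPM. CIR1, an RBPJ-interacting corepressor, rose from 21.5 to 67.2 CPM and the demethylase KDM5A from 91.7 to 185 CPM.

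Other genes reported as Notch targets fell in 8 and rose in 3 of 11 measured cases (median log2 fold change -1.15), beside 41.2% lower and 41.8% higher among all genes tested. Against a fold of 1.5, 6 were lower and 2 higher. NRARP, a target that feeds back on the pathway, fell from 74.2, 73.7 and 75.0 CPM to 25.6, 28.8 and 26.6 CPM (log2 fold change -1.46, SE 0.0491, adjusted p = 1.37e-22, edgeR). CCND1, cyclin D1, fell from 52.7 to 15.0 CPM and CDKN1A, a cell cycle inhibitor also induced by p53, rose from 129 to 537 CPM. These genes answer to other pathways as well, so the list is no measure of Notch activity. Of the 7 proneural factors that HES proteins repress, 3 passed the filter, all with group means under 1 CPM, and ATOH1 fell from 0.495 to 0.244 CPM.

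**Figure D4:**
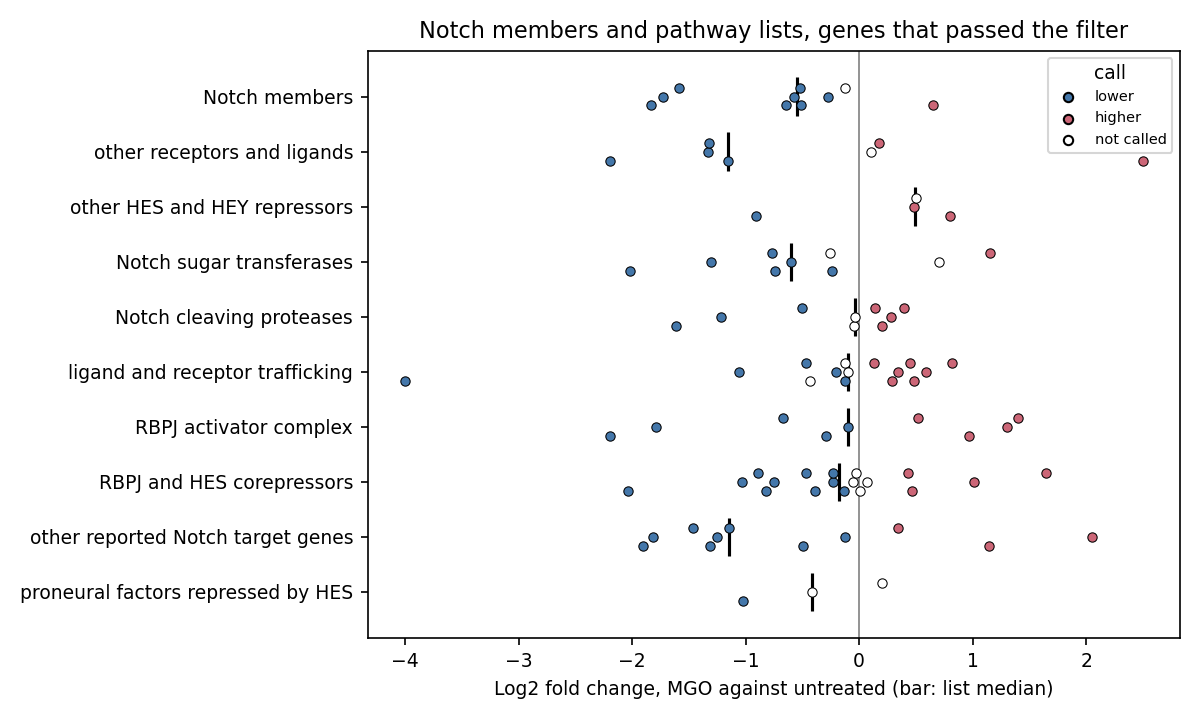
Log2 fold change of each tested gene of the 10 members and of the 9 pathway lists (rows), coloured by call, with a bar at each list median. Members and other target genes lie mostly left of 0, while proteases, trafficking factors and the RBPJ complex spread to both sides.

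The directions of the 10 genes were also compared across 15 other ways of processing the counts. Log2 fold changes of JAG2 ranged from -2.02 to -1.77, of NOTCH3 from -1.91 to -1.66, of HEY1 from -1.77 to -1.49 and of HES4 from 0.47 to 0.72. HES6, the smallest called fall, ranged from -0.46 to -0.21 (adjusted p 1.36e-13 to 0.00656 over the tools run, edgeR among them).

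**Figure D5:**
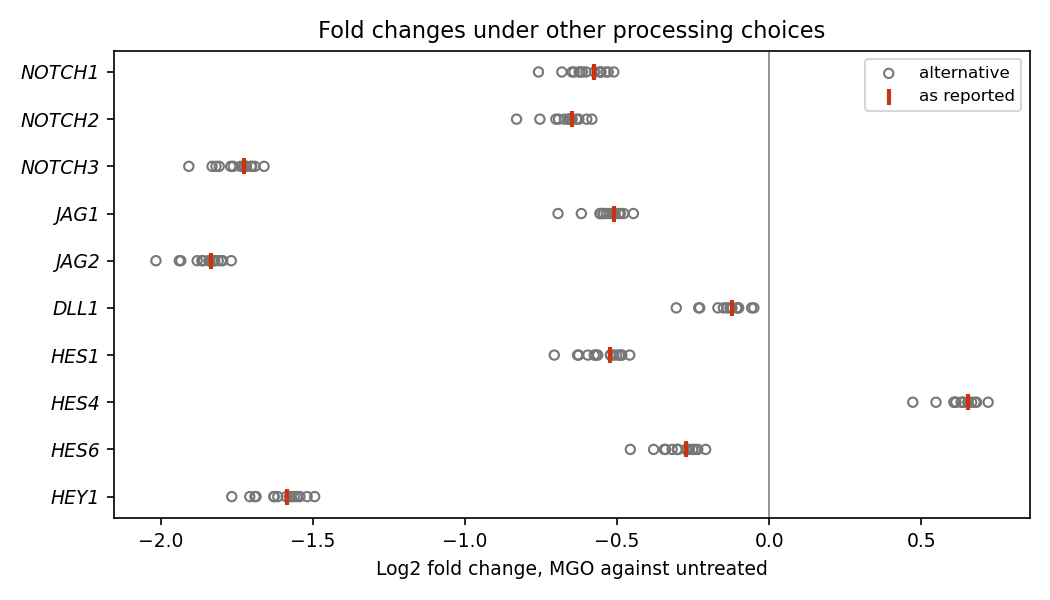
Log2 fold change of the 10 Notch genes as reported (red bar) and in 15 alternative analyses (open circles). No gene changes sign, and HES4 stays above 0, between 0.47 and 0.72.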

How the data were processed

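Poly(A) RNA was measured in 6 libraries. The authors deposited a table of unnormalized counts for each library, with genes listed by symbol. Per the submitters' processing notes the build was hg38 and the tools were HTSeq 0.9.1, STAR 2.4, Trim Galore and Picard. The sources used here give no settings, annotation or strand use, which leaves overlapping genes and close copies uncertain. Members and gene lists were chosen with earlier results of these data known, so they are not independent evidence.

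The whole table was tested with edgeR 4.0.16 in R 4.3.3. The steps were filterByExpr (17415 genes kept), TMM scaling, robust glmQLFit and a two-sided glmQLFTest of MGO against untreated without covariates, leaving 4 residual degrees of freedom. P-values were adjusted by Benjamini-Hochberg over all genes tested, with a threshold of 0.05, and glmTreat tested against a fold of 1.5. SE is the log2 fold change over the square root of F, and 95% intervals use the moderated degrees of freedom. Log2 CPM used a prior count of 2. Rows with a date for a name (29) are not named. Gene positions and exon lengths come from GENCODE release 29 (GRCh38), and promoter sequences from RefSeq (GRCh38.p14).

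All members were named, and up to 3 called genes of each list by smallest p. RBPJ, MAML1 and TBL1XR1 were named in addition, after their values were seen. Of the markers, CLDN5, KDR, COL1A1 and those of HEK293 cells were named after their values were seen. Alternatives were RLE or library size scaling, 2 other filters on low counts (none, or 1 CPM throughout), omission of each library or of both libraries numbered 1, the replicate number as a block, untreated libraries thinned to the mean MGO total, voom in limma 3.58.1, and DESeq2 1.42.0. Since reads carried no molecular identifiers, counts are not numbers of independent molecules.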

Additional observations from a re-analysis of the deposited data

How the results depend on the processing

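The 10 genes kept their direction in all 15 alternatives, and 147 of 150 values kept their side of the threshold, the other 3 being DLL1. From 8 to 9 members were called lower and 1 higher. Against a fold of 1.5, where 1 gene was higher as reported, 0 were higher with scaling by library size alone, with the fixed replicate block, without both libraries numbered 1, and with no filter on low counts, which also gave 7 lower in place of 4. Leaving out each library in turn gave 0 to 1 higher, with 0 without untreated replicate 1 or 2 and without MGO replicate 1 or 3, and 4 lower each time. HES4 is the gene that lost this call. With RLE scaling, 1 CPM throughout, the block and thinned libraries, 3 genes were lower in place of 4, as NOTCH2 lost the call (adjusted p 0.102, 0.545, 0.168 and 0.289), and no filter added NOTCH1, JAG1 and HES1. Scaling by library size alone moved the median of all genes by -0.105 on the log2 scale. Relative to that median DLL1 stood at -0.128 under every scaling tried. A change of scaling shifts all genes nearly alike, so this value could not differ and tests nothing. On the pathway lists, 27 higher and 43 lower became 20 and 52 with no filter, 22 and 48 with library size, 26 and 34 with 1 CPM throughout, 28 and 40 with RLE, and 23 and 37 with the block. Of all genes, 83.1% were called as reported, 55.2% with DESeq2 and 49.3% with no filter, which tested 27672 and 35722 genes in place of 17415.

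The replicate numbers 1 and 4 occur in both groups, but same-numbered libraries did not deviate together (r of 0.0204 and -0.0078 over 17415 genes). The replicate block, with 1 residual degree of freedom, called 13451 genes in place of 14464, and 1 member higher and 8 lower as without it. Untreated library 2 and MGO library 3 have no same-numbered partner. They add nothing to the fold changes of the block model, which rest on the libraries numbered 1 and 4. Using the longest transcript in place of exon union length moved shares within a class, with HES4 at 53.2% in untreated and 76.1% in MGO libraries, and JAG2 at 22.4% and 9.50%.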
